A study of Mus musculus with 4 samples.

Results

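The genes described here are 4 homeobox genes of the Dlx family (Dlx1, Dlx2, Dlx5 and Dlx6), the antisense RNAs annotated beside them (Dlx1as and Dlx6os1) and the zinc-finger gene Sp9. They were taken by symbol, 7 of the 32285 genes of the count matrices, and each symbol matched 1 gene. Dlx proteins bind DNA and drive the ventral forebrain program that makes inhibitory neurons, which use the transmitter GABA. In the embryonic ganglionic eminences Dlx1 and Dlx2 act first, in dividing progenitors, and Dlx5 and Dlx6 follow in cells that are leaving division. The genes sit in convergent pairs that share enhancers, and both antisense RNAs are long noncoding transcripts. Sp9 is a transcription factor that striatal projection neurons and many interneurons need for their differentiation.

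The cells came from the forebrain of C57BL/6 mice at postnatal day 5, and each library was made from the pooled cells of 3 mice. By the methods, cortex and striatum were taken, and the olfactory bulb, where many inhibitory neuroblasts end up, was left out. All mice carried NestinCreERT2, a tamoxifen-activated Cre recombinase under the Nestin promoter, which is active in neural stem cells, and the Cre reporter tdTomato, and tamoxifen was given at embryonic day 14.5. Controls were Chd8+/+ and mutants Chd8+/F, so that Cre removes 1 copy of Chd8, a chromatin remodeller, in mutant cells only. Sorted tdTomato-positive cells of 2 control and 2 mutant libraries were profiled with 3′ single-cell RNA sequencing, in which unique molecular identifiers (UMIs) count RNA molecules.

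After filtering, 5710 and 2973 control cells and 5659 and 3281 mutant cells remained (replicate 1 before replicate 2, here and throughout), with 11497 to 11837.5 UMIs in the median cell. The 2 replicates differed in ways that run across both genotypes. Files of replicate 1 were written by Cell Ranger 7.0.0 and those of replicate 2 by Cell Ranger 5.0.1. Xist, the RNA of the inactive X chromosome, was at 0.149 and 0.153 counts per 1000000 UMIs (CPM) in both replicate 1 libraries and at 1633 and 1749 CPM in both replicate 2 libraries. Mitochondrial counts averaged 2.61 and 2.98% against 5.78 and 5.03%. Software version, Xist level and mitochondrial share cannot be told apart from the replicate number. Between 2 and 15 cell barcodes were shared by any pair of libraries. Chd8 stood at 61.7 and 89.8 CPM in the controls and at 68.7 and 94.9 CPM in the mutants, and since a 3′ count need not come from the deleted part of the gene, this level does not check the genotype labels. The labels call the cells neuronal, but clusters with markers of astrocytes, oligodendrocyte precursors, ependymal cells, microglia and blood vessels were present as well.

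Cells were clustered without the 7 genes, and clusters were named from fixed markers that did not include them. A total of 900 dividing inhibitory progenitor-like cells fell into a cluster led by histone genes (731 cells) and one led by genes of mitosis (169 cells). Inhibitory neuroblast-like cells, young migrating neurons, fell into a cluster led by Sp8 (1234 cells) and one led by Prokr2 (1260 cells), a receptor gene of neuroblasts bound for the olfactory bulb. Striatal projection neuron-like cells (278) and a cluster of 178 cells led by Reln, Lhx6 and Adarb2 form the group of other inhibitory neurons. The latter cluster was left unnamed, because Lhx6 marks interneurons of the medial ganglionic eminence and Reln and Adarb2 are on the marker list of those of the caudal eminence. A cluster of 919 cells led by Veph1 and Sfrp1, which the naming rule left unnamed, and one of 653 cells led by Dll1 and Egfr, which the rule called early oligodendrocyte precursor-like, were kept as non-neuronal points of reference. Mki67, a gene of dividing cells, averaged 726 and 793 CPM over the libraries in the histone-led and mitosis-led cells and 24.6 CPM in the Sp8-led neuroblasts. Lhx6 averaged 128 CPM, with a range over libraries of 15.3 to 204 CPM, in the Lhx6- and Reln-led cells and 3.31 CPM in the striatal cells, and Bcl11b averaged 159 and 1103 CPM in the same order. Mki67, Lhx6 and Bcl11b are themselves on the marker lists used for naming, so the naming partly set these contrasts in advance. Because the steps are clusters of the same cells, levels across them are given as a description with no test. Mutant replicate 2 held only 8 mitosis-led and 8 Lhx6- and Reln-led cells, so its values there rest on few molecules.

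The 7 genes lie on 2 chromosomes of the mouse genome (mm10). Dlx1 (chr2:71528113-71533981, plus strand) and Dlx2 (chr2:71543408-71546754, minus strand) converge on chromosome 2 with 9426 bases between them. Dlx1as (chr2:71516454-71537891, minus strand) spans all of Dlx1 on the opposite strand, and 335 exonic bases are shared by both. On chromosome 6, Dlx6 (chr6:6863334-6868568, plus strand) and Dlx5 (chr6:6877805-6882085, minus strand) are 9236 bases apart. Dlx6os1 (chr6:6820189-6871592, minus strand) spans all of Dlx6, with 0 shared exonic bases. Sp9 (chr2:73271925-73284706, plus strand) lies 1737943 bases from Dlx1. Introns make up 92.4% of Dlx1as and 89.9% of Dlx6os1, against 8.06% of Dlx1 and 14.7% of Dlx2. Whether reads on the opposite strand were set aside in counting is not given in the sources used here, so counts of Dlx1 and Dlx1as, and of Dlx6 and Dlx6os1, may hold reads of one another.

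RefSeq start sites (GRCm38.p6) were found for 4 of the 7 genes, and their promoters, from 250 bases before to 50 bases after the start, were searched on both strands for 3 short motifs. These are TAATTA, the core bound by homeodomain proteins such as the Dlx factors, CAGCTG, an E-box form bound by bHLH factors, and GGGCGG, the GC box of the Sp family. The sequences are shown because the 4 genes differ below in whether they were counted above background in the Dll1- and Egfr-led cells, and capitals mark the motif matches (CCGCCC being GGGCGG on the other strand).
Dlx1, chr2:71529195-71529494, plus strand: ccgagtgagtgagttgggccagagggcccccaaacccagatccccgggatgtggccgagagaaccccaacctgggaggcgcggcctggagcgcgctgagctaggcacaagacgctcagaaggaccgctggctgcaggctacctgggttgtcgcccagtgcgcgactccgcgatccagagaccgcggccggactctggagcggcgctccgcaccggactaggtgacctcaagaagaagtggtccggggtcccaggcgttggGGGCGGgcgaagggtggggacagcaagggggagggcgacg
Dlx2, chr2:71546705-71547004, minus strand: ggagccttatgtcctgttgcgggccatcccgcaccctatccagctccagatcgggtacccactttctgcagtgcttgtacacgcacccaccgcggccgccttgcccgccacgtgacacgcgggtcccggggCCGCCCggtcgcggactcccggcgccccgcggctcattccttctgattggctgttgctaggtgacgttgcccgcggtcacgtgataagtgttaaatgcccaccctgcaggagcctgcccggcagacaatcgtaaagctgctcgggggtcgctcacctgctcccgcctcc
Dlx6os1, chr6:6869484-6869783, minus strand: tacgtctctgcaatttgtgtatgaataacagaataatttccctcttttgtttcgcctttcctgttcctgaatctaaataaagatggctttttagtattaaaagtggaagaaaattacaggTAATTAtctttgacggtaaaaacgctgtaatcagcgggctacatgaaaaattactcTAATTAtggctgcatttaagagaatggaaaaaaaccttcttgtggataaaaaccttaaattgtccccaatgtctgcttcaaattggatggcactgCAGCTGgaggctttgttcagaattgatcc
Sp9, chr2:73271676-73271975, plus strand: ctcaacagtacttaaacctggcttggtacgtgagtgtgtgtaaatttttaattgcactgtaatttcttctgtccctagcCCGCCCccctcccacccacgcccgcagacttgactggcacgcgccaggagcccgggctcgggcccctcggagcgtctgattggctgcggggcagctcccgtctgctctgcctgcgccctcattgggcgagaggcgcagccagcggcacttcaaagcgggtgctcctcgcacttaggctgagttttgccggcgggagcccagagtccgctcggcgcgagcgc
The Dlx6os1 promoter held 2 matches of TAATTA and 1 of CAGCTG, and a second Dlx6os1 start site (chr6:6861634-6861933) held 1 match of TAATTA. The homeodomain core occurred in 5.29% of 32851 promoters of this length, and CAGCTG in 16.3%. The promoters of Dlx1, Dlx2 and Sp9 each held 1 GC box, a motif of 35.7% of promoters, and 0 matches of the other motifs. A match says only that these letters are in this window.

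RNA of the 7 genes was concentrated in the inhibitory lineage. The dividing progenitors, neuroblasts and other inhibitory neurons were 21.8% of all cells kept, and they held 87.5% of the 20016 Dlx1 UMIs, 85.9% of 20116 Dlx2 UMIs, 92.1% of 9217 Dlx5 UMIs, 92.8% of 2265 Dlx6 UMIs, 84.9% of 5499 Dlx1as UMIs, 92.7% of 33786 Dlx6os1 UMIs and 91.6% of 16118 Sp9 UMIs. Outside these groups and the reference clusters, the highest mean level was in dividing astrocyte-like cells for every member except Dlx6os1, at 35.9 CPM for Dlx1 and 41.2 CPM for Dlx2. Over libraries, Dlx1 ran from 5.16 to 63.7 CPM and Dlx2 from 7.98 to 81.8 CPM in these astrocyte-like cells. Among the same outside types, Dlx6os1 was highest in microglia-like cells, immune cells that are no source of inhibitory neurons. It had 52.7 and 51.3 CPM in the replicate 1 libraries of controls and mutants, and 0 counts and 1 count in those of replicate 2. Microglia-like cells are used below as the background, and whether their counts come from free RNA or another source was not tested. All members but Dlx6 were higher in them in both replicate 1 libraries than in either replicate 2 library. Dlx3 and Dlx4, the other protein-coding Dlx genes of the matrices, averaged at most 0.245 CPM in any of the 8 clusters.

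Outside the inhibitory groups, Dlx1 and Dlx2 stood above the microglial background in the Dll1- and Egfr-led cells. Dlx1 was there at 109 and 114 CPM in the controls and 91.6 and 49.9 CPM in the mutants. The microglia-like cells held at most 25.1 CPM in any library, so all 4 libraries stood above that background. Dlx2 was at 105 and 56.5 CPM in the controls and 96.5 and 30.1 CPM in the mutants in the same cells, against at most 22.9 CPM in microglia. For both genes the highest library of the dividing astrocyte-like cells also passed the microglial maximum, and the lowest did not. Levels above this background were thus not particular to the Dll1- and Egfr-led cells. Dlx1as, the antisense RNA over Dlx1, was at 15.6 and 7.77 CPM in the controls and 13.95 and 1.13 CPM in the mutants, and its highest level in microglia was 10.9 CPM. Both replicate 2 libraries therefore fell below the highest microglial value for Dlx1as. Dlx5 averaged 4.18 ± 4.36 CPM (SD, n = 4 libraries) in these cells, Dlx6 1.02 ± 1.58 CPM, Dlx6os1 8.48 ± 9.18 CPM and Sp9 10.2 ± 6.92 CPM. For Dlx5, Dlx6os1 and Sp9 both replicate 1 libraries were below the microglial level of their own library, and neither replicate 2 library had more than 10 counts, so these values cannot be told from background. Dlx6 had 9 and 2 counts in the controls and mutants of replicate 1 and 0 in both replicate 2 libraries. In the Veph1- and Sfrp1-led cells all 7 members were low, with means between 0.595 CPM for Dlx6 and 10.8 CPM for Dlx6os1.

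Genes of GABA synthesis and transport were lower on average in the Dll1- and Egfr-led cells than in the histone-led dividing cells. Gad1 and Gad2, which make GABA, averaged 4.98 and 17.3 CPM there and 63.6 and 223 CPM in the histone-led cells, and the transporter gene Slc32a1 averaged 0.833 and 22.8 CPM. These genes are on the marker list that named the inhibitory clusters, so the naming largely set this contrast in advance. The homeobox genes Gsx1 and Gsx2, known to act before Dlx genes in the ganglionic eminence, averaged 23.1 and 33.7 CPM in the Dll1- and Egfr-led cells and 11.03 and 31.7 CPM in the histone-led cells. Olig2, an oligodendrocyte factor that Dlx1 and Dlx2 are known to repress, averaged 384 CPM in the Dll1- and Egfr-led cells. Each cell was next thinned to 2000 UMIs so that shares of cells with a UMI are compared at 1 depth. Cells with Dlx1 or Dlx2 were 16.2 and 11.2% of these cells in the controls and 15.2 and 4.93% in the mutants. Among them, Olig2 was found in 6.06 and 30.8% in the controls and in 20.7 and 57.1% in the mutants, against 43.9 and 41.7% and 42.0 and 62.2% of the cells without Dlx1 and Dlx2. The share with Olig2 was thus lower in Dlx-positive cells in 4 of 4 libraries, on 33, 13, 29 and 7 such cells. Gad2 was found in 21.2 and 7.69% of the Dlx-positive cells in the controls and in 13.8 and 14.3% in the mutants. Of the cells without Dlx1 and Dlx2, 2.92 and 0.971% and 1.23 and 0% had Gad2, a lower share in 4 of 4 libraries. Whether the Dlx-positive cells are another kind of cell within the cluster was not tested. Haemoglobin RNA (Hba-a1) was at 1290.3 and 792 CPM in this cluster in control and mutant replicate 1 and at 0 and 1.70 CPM in replicate 2, and its part in these values was not tested.

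All 7 members were higher in the dividing progenitors. Relative to the Dll1- and Egfr-led cells of the same library, the log2 change of Dlx1 was 2.005 and 2.15 in the controls and 2.16 and 3.19 in the mutants. Dlx2 changed by 2.32 and 2.42 in the controls and 2.50 and 3.50 in the mutants, and Sp9 by 4.21 and 5.72 in the controls and 4.68 and 5.52 in the mutants. Sp9 thus moved further than Dlx1 and Dlx2 in every library. Dlx5 and Dlx6os1 had enough counts for a ratio only in replicate 1, where the changes were 4.25 and 5.11 for Dlx5 and 4.88 and 5.30 for Dlx6os1. The ratios of Dlx5, Dlx6os1 and Sp9 start from levels that could not be told from background.

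Within the dividing cells, every member was higher in the mitosis-led than in the histone-led cluster in 4 of 4 libraries. Dlx1 was at 409 and 465 CPM in the controls and 390.1 and 434 CPM in the mutants in the histone-led cells and at 568 and 826 CPM in the controls and 512 and 669.9 CPM in the mutants in the mitosis-led cells. The 2 sets of libraries did not overlap. Dlx6, a gene of the second pair, went from 49.5 and 26.0 CPM in the controls and 47.8 and 39.4 CPM in the mutants to 116 and 89.5 CPM in the controls and 109.9 and 144 CPM in the mutants, again without overlap. Dlx1as went from 109 and 27.4 CPM in the controls and 110.4 and 11.6 CPM in the mutants to 273 and 69.6 CPM in the controls and 289 and 76.6 CPM in the mutants. Both replicate 2 libraries of the mitosis-led cells were below the replicate 1 libraries of the histone-led cells for Dlx1as, so that its rise shows within a library only. The mean log2 change (SD, n = 4 libraries) was 1.69 ± 0.68 for Dlx1as, 1.52 ± 0.35 for Dlx6, 0.999 ± 0.30 for Dlx5, 0.96 ± 0.30 for Dlx6os1, 0.77 ± 0.58 for Dlx2, 0.58 ± 0.19 for Dlx1 and 0.41 ± 0.23 for Sp9. Gad2 went from a mean of 223 to 439 CPM. The histone-led cluster was mixed. After thinning, 24.6 and 35.6% of its cells in the controls and 24.8 and 41.9% in the mutants had a UMI of 0 of the 7 members, against 1.18% of all mitosis-led cells, and Olig2 averaged 142 CPM in it. When the members were kept among the clustering genes, 589 instead of 900 cells were called dividing inhibitory progenitors, and the mean level of Dlx1 in them was 697 instead of 452 CPM.

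**Figure D1:**
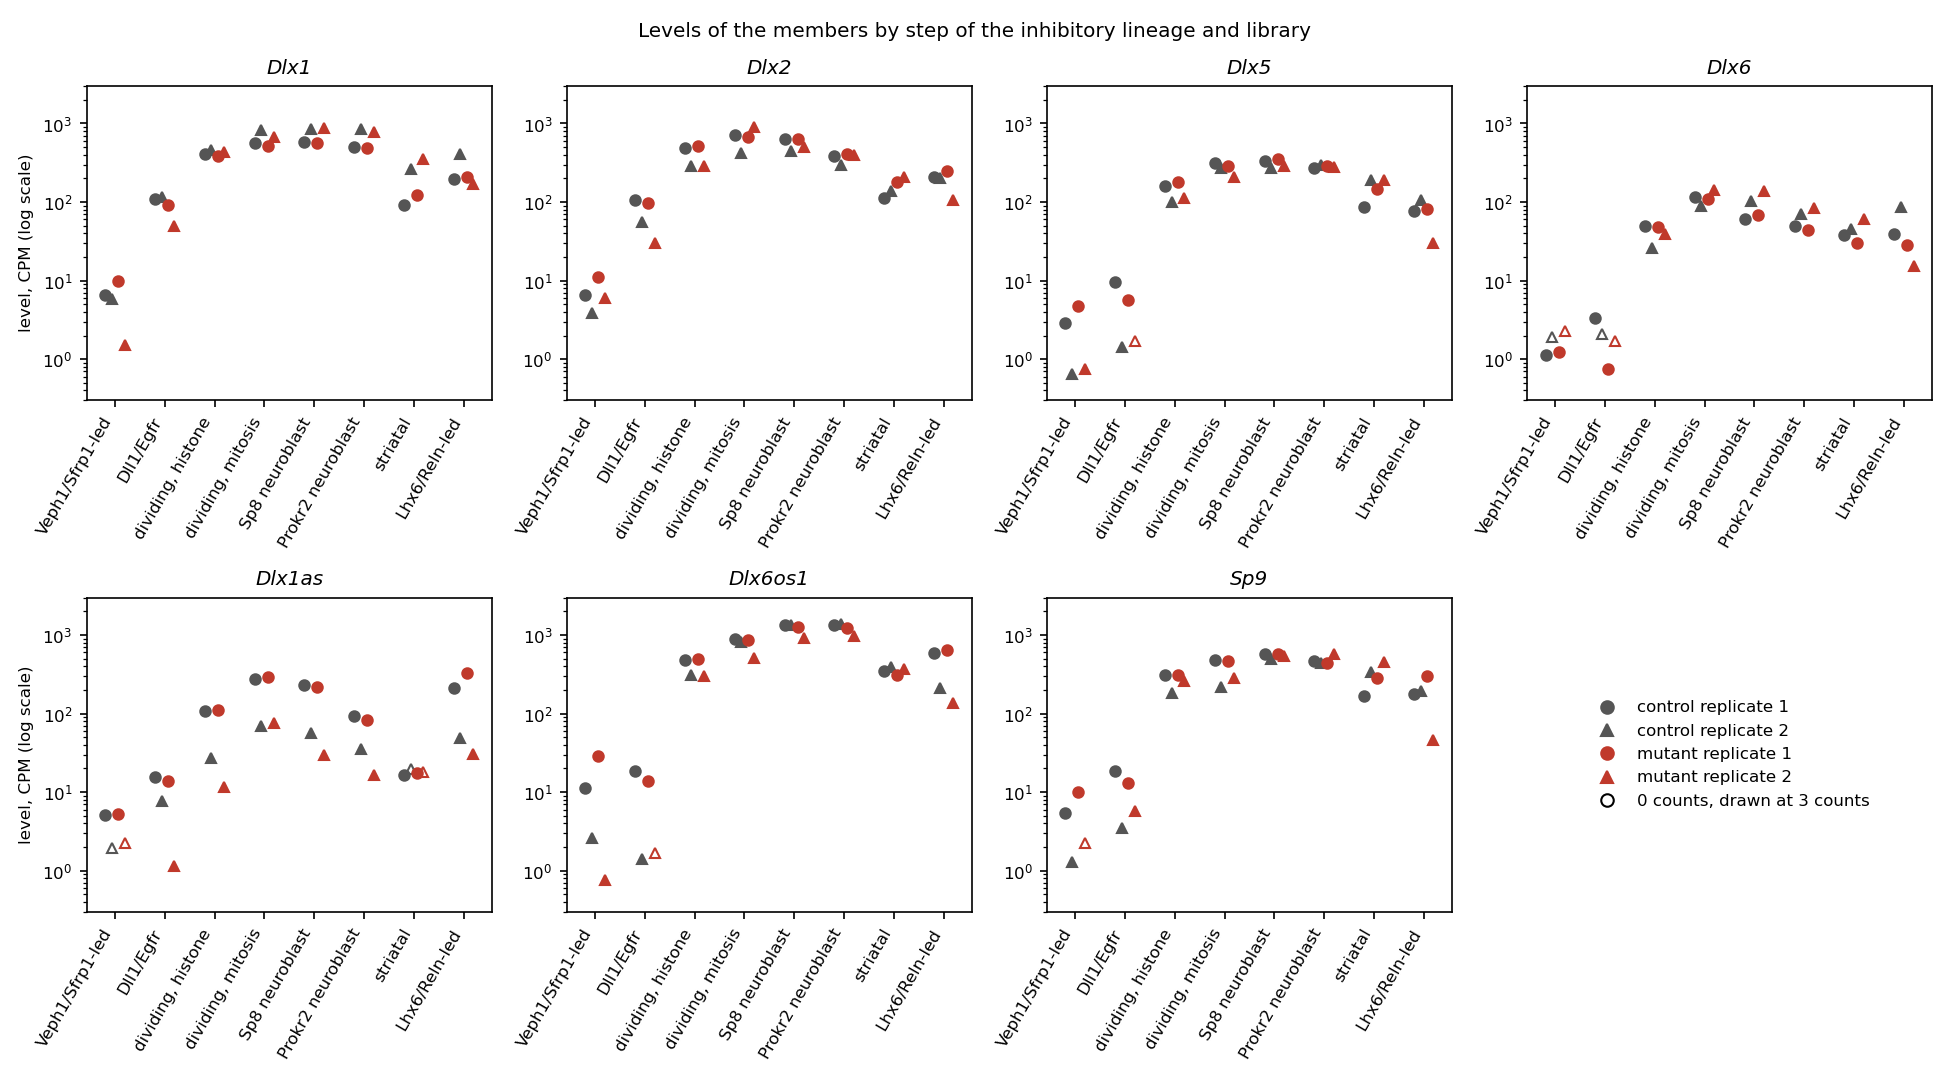
Level of each gene in CPM (log axis) in the 8 clusters, from the 2 reference clusters on the left to the neurons on the right; each point is 1 library, coloured by genotype and shaped by replicate, and open points had 0 counts and are drawn at the level of 3 counts. Dlx1 and Dlx2 stand at 30.1 to 114 CPM in the Dll1- and Egfr-led cells, where Dlx5 and Dlx6 stay under 10 CPM, and Dlx1as splits by replicate.

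From dividing progenitors, taken as 1 group, to neuroblasts the members parted, and for most of them the change rested on which cells counted as dividing. Dlx6os1, the RNA antisense to Dlx6, was at 547 and 373 CPM in the controls and 550.0 and 315 CPM in the mutants in dividing cells and at 1345 and 1348 CPM in the controls and 1247 and 941 CPM in the mutants in neuroblasts. The log2 change within a library was 1.30 and 1.85 in the controls and 1.18 and 1.58 in the mutants, the largest mean change of the 7 (1.48 ± 0.30, SD, n = 4). Dlx5 went from 184 and 121 CPM in the controls and 195 and 120.4 CPM in the mutants to 307 and 282 CPM in the controls and 326 and 284 CPM in the mutants. Both genes were higher in neuroblasts in every library, and the 4 neuroblast values did not overlap the 4 values of dividing cells. Sp9 did the same, with a mean log2 change of 0.92 ± 0.36. Dlx1 changed by 0.57 ± 0.26 and Dlx1as by 0.36 ± 0.12, both upward in 4 of 4 libraries. Dlx2 changed by 0.17 ± 0.20, with 0.021 and 0.29 in the controls and -0.0087 and 0.40 in the mutants, so that it was level in replicate 1 and higher in replicate 2. Dlx6 split by replicate as well, with -0.12 and 1.35 in the controls and -0.0032 and 1.19 in the mutants. Against the mitosis-led cells alone, a choice made after the values were seen, the mean log2 change to neuroblasts was 0.69 ± 0.15 for Dlx6os1, 0.58 ± 0.52 for Sp9, 0.17 ± 0.20 for Dlx5, 0.081 ± 0.15 for Dlx1, -0.47 ± 0.36 for Dlx2, -0.61 ± 0.47 for Dlx6 and -0.96 ± 0.53 for Dlx1as. With the members kept among the clustering genes it was 0.71 ± 0.22 for Dlx6os1, 0.25 ± 0.23 for Dlx5, 0.17 ± 0.26 for Sp9, -0.030 ± 0.11 for Dlx1, -0.094 ± 0.66 for Dlx6, -0.23 ± 0.15 for Dlx1as and -0.45 ± 0.061 for Dlx2. Dlx6os1 was thus higher in neuroblasts in 4 of 4 libraries under all 3 choices, the only member of which that holds, while Dlx2 and Dlx1as were lower in neuroblasts in 4 of 4 libraries under both of the others, and Dlx1 and Dlx6 kept no steady direction. Clustering with the members sorts cells partly by the genes measured. The changes under that choice are therefore partly set in advance and are no independent support. Gad1 and Gad2 averaged 246 and 669.9 CPM in the Sp8-led neuroblasts.

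Between the 2 neuroblast clusters, Dlx6os1 was level while Dlx1as and Dlx2 were lower in the Prokr2-led cells. Dlx6os1 was at 1352 and 1330.3 CPM in the controls and 1271 and 922 CPM in the mutants in Sp8-led cells and at 1334 and 1366 CPM in the controls and 1215 and 958 CPM in the mutants in Prokr2-led cells. The log2 changes were -0.020 and 0.038 in the controls and -0.065 and 0.055 in the mutants. Dlx1as was at 231 and 56.5 CPM in the controls and 216 and 29.4 CPM in the mutants in Sp8-led cells and at 93.6 and 35.4 CPM in the controls and 83.8 and 16.5 CPM in the mutants in Prokr2-led cells, with log2 changes of -1.30 and -0.67 in the controls and -1.37 and -0.83 in the mutants. It was lower in the Prokr2-led cells of each library, and more so in replicate 1. Dlx2 went from 635 and 447 CPM in the controls and 644 and 496 CPM in the mutants to 388 and 295 CPM in the controls and 409.9 and 401 CPM in the mutants, a mean change of -0.57 ± 0.18 without overlap. Dlx6 changed by -0.53 ± 0.18 and Dlx1 by -0.14 ± 0.080, downward in 4 of 4 libraries, and Dlx5 and Sp9 were lower in 3 of 4. Meis2 and Etv1, transcription factors of olfactory bulb interneurons, averaged 2237 and 401 CPM in Sp8-led and 4154 and 496 CPM in Prokr2-led cells. Sp8 went the other way, with means of 316 CPM in Sp8-led and 282 CPM in Prokr2-led cells and overlapping ranges. These genes are on the marker list that named the neuroblast clusters. Meis2 is also on the striatal marker list and averaged 3653 CPM in striatal cells.

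Each of the 7 members was lower in the other inhibitory neurons, taken as 1 group, than in the neuroblasts of the same library, in 4 of 4 libraries. Dlx2 was at 112 and 137 CPM in the controls and 178 and 211 CPM in the mutants in striatal projection neuron-like cells and at 211 and 204 CPM in the controls and 246 and 107 CPM in the mutants in the Lhx6- and Reln-led cells. All of these values were below the lowest of the Prokr2-led neuroblasts. Dlx1as was at 16.5 and 0 CPM in the controls and 17.6 and 0 CPM in the mutants in striatal cells but at 212 and 49.4 CPM in the controls and 326 and 30.6 CPM in the mutants in the Lhx6- and Reln-led cells. The Lhx6- and Reln-led cells exceeded the Prokr2-led neuroblasts of the same library in 4 of 4 libraries, on 8 and 2 counts in replicate 2, and they exceeded the striatal cells by 3.69 and 4.21 on the log2 scale in replicate 1. The 2 striatal zeros rest on 153758 and 165560 UMIs in all and allow up to 19.5 and 18.1 CPM (3 counts, counting error only). Dlx1, which Dlx1as spans, was at 91.8 and 267 CPM in the controls and 122 and 350.3 CPM in the mutants in striatal cells and at 199 and 408 CPM in the controls and 209 and 168 CPM in the mutants in the Lhx6- and Reln-led cells. Dlx5 was at 85.6 and 189 CPM in the controls and 147 and 193 CPM in the mutants and at 77.8 and 105 CPM in the controls and 82.0 and 30.6 CPM in the mutants in the same order. Dlx1 was higher in the Lhx6- and Reln-led cells in 3 of 4 libraries, and the exception, mutant replicate 2, had 11 counts in 8 cells. Dlx5 was lower in the Lhx6- and Reln-led cells in the 3 libraries with a ratio. Sp9, a factor of striatal neurons, was at 166 and 338 CPM in the controls and 281 and 447 CPM in the mutants in striatal cells and at 178 and 191 CPM in the controls and 298 and 45.9 CPM in the mutants in the Lhx6- and Reln-led cells, and the 2 sets overlapped. Dlx6 and Dlx6os1 overlapped likewise between the 2 kinds of neuron. Dlx6 in the Lhx6- and Reln-led cells of control replicate 2, at 86.5 CPM on 14 counts, was above the 70.8 CPM of the Prokr2-led neuroblasts there.

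The order of the 8 clusters by mean level differed among the genes. For Dlx1, Dlx5, Dlx6os1 and Sp9 the Sp8-led neuroblasts came first and the Prokr2-led neuroblasts next, but their ranges overlapped. For Dlx2, Dlx6 and Dlx1as the mitosis-led cells came first, at 672 ± 192, 115 ± 22.3 and 177 ± 120.1 CPM (SD, n = 4), with ranges that overlapped those of the cluster next in order. At the low end, the Dll1- and Egfr-led cells did not overlap the Veph1- and Sfrp1-led cells for Dlx1 and Dlx2, and for Dlx5, Dlx6 and Sp9 they did. For Dlx5, Dlx6 and Sp9 it was the inhibitory cluster next above the Dll1- and Egfr-led cells that did not overlap them.

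Shares of cells with a UMI were compared at a common depth of 2000 UMIs per cell, over the same groups. Dlx6os1 was found in 52.4% (49.1 to 55.8%) of dividing cells, 85.2% (83.8 to 86.6%) of neuroblasts and 51.5% (46.8 to 56.2%) of other inhibitory neurons (exact Clopper-Pearson 95% intervals over all libraries, which cover counting error only). Microglia-like cells, with a median of 10717 UMIs before thinning, gave 2.77% (1.34 to 5.04%). Dlx1 was found in 8.12% (6.14 to 10.5%) of Dll1- and Egfr-led cells, 53.0% (49.7 to 56.3%) of dividing cells and 65.1% (63.2 to 67.0%) of neuroblasts, against 1.66% (0.612 to 3.58%) of microglia. The interval of the Dll1- and Egfr-led cells, pooled over libraries, lies above that of microglia, but pooled cells are not replicates. In mutant replicate 2 alone the Dlx1 share of the Dll1- and Egfr-led cells was 3.52%, within the microglial interval. For Dlx5 the pooled interval of the Dll1- and Egfr-led cells, 1.38% (0.632 to 2.60%), overlapped that of microglia, 1.11% (0.303 to 2.81%). Dlx5 then reached 29.3% of dividing cells and 43.1% of neuroblasts, Sp9 43.6% and 58.7%, Dlx2 56.1% and 57.4%, and Dlx6 11.6% and 11.7%. Before thinning, Dlx6os1 was found in 97.1% of neuroblasts and Dlx1 in 89.8%. A thinned neuroblast of the Sp8-led cluster held on average 3.69 of the 7 members, a Prokr2-led one 3.12, a striatal cell 1.66 and a Dll1- and Egfr-led cell 0.240.

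**Figure D2:**
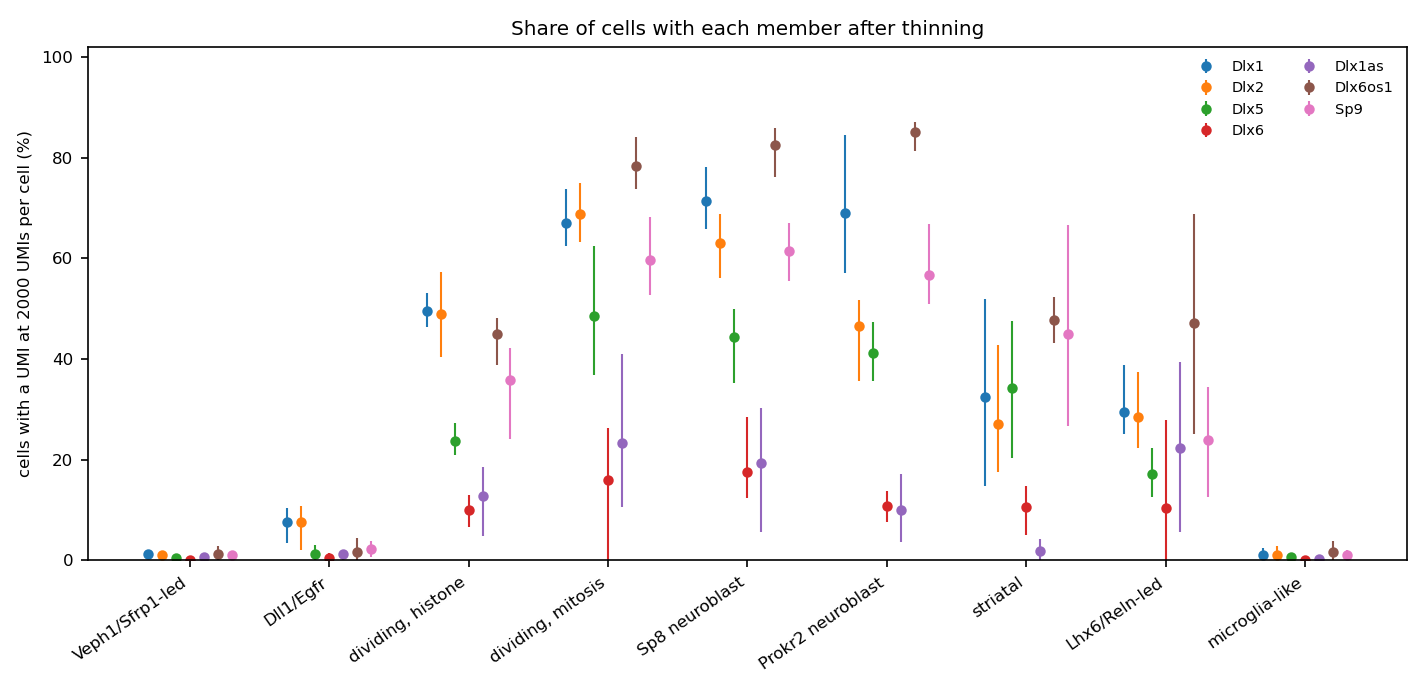
Percent of cells with at least 1 UMI of each gene after thinning to 2000 UMIs per cell, in the 8 clusters and in microglia-like cells; points are means over the 4 libraries and bars run from the lowest to the highest library. Each member is found in a larger share of either neuroblast cluster than of Dll1- and Egfr-led cells in 4 of 4 libraries, and Dlx6os1 in microglia-like cells reaches 3.92% in its highest library.

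Dlx1 and Dlx2 tended to be found in the same cells. Among Dll1- and Egfr-led cells with Dlx2, Dlx1 was present in 40.9 and 44.4% in the controls and in 52.6 and 33.3% in the mutants, the last being 1 of 3 cells. Among those without Dlx2 it was present in 6.04 and 3.74% and in 5.81 and 2.88%. The difference was positive in 4 of 4 libraries, at 30.5 to 46.8 percentage points. In dividing cells it was 26.1 to 60.8 points for Dlx1 with Dlx2 and 31.3 to 41.5 points for Dlx5 with Dlx6os1. It was as large for Dlx1 with Dlx6os1, which lie on different chromosomes, at 26.1 to 57.2 points, and ran from -0.81 to 24.0 points for the neighbours Dlx5 and Dlx6. In neuroblasts it was 0.108 to 13.1 points for Dlx1 with Dlx2, -6.43 to 6.74 for Dlx5 with Dlx6os1, -6.51 to 6.82 for Dlx1 with Dlx6os1 and -5.30 to 25.8 for Dlx5 with Dlx6. Cells of 1 library are not replicates and a cluster can hold several kinds of cell, so these shares are a description.

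Across 13 named cell types with at least 20 cells in every library, the genes whose levels were most like those of the members included genes of GABA synthesis and transport. The measure was Pearson's r of log2(CPM + 1), with CPM averaged over the same 4 libraries, over 11883 genes, and it is a description, since the types share the same libraries. Gad1, Gad2 and Slc32a1 are also on the marker list that named the inhibitory types, and Sp8 is on that of the inhibitory neuroblasts. Slc32a1, the vesicular GABA transporter, led the list of Dlx5 (r = 0.985), Dlx6 (r = 0.977) and Dlx6os1 (r = 0.976), and Gad2 that of Sp9 (r = 0.984). The list of Dlx1 was led by A430106G13Rik (r = 0.948), that of Dlx2 by the same gene (r = 0.901), and that of Dlx1as by Sp8 (r = 0.905). Nrxn3, a synaptic adhesion gene, was among the 5 closest genes of all 7 members. Among the members themselves r was 0.993 for Dlx5 and Sp9, 0.992 for Dlx5 and Dlx6os1 and 0.983 for Dlx1 and Dlx2, and lowest, 0.858, for Dlx5 and Dlx1as.

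The study compared mutants with controls. No member passed the test between genotypes in any cell group. Summed counts were tested with edgeR's quasi-likelihood test, which called 0 of the 7 members, and 0 of 12056 genes (0%), in dividing progenitors, 0 of 12257 genes (0%) in neuroblasts, 0 of 8896 genes (0%) in other inhibitory neurons and 0 of 14179 genes (0%) over all 3 groups, at a Benjamini-Hochberg adjusted p of 0.05. Unadjusted p-values were under 0.05 for 7, 2, 14 and 6 genes (0.0581, 0.0163, 0.157 and 0.0423% of the genes tested) and for 0 members. These shares are far below what a threshold of 0.05 gives without any change, so this edgeR fit was conservative. Its 0 calls do not show that no member changed. DESeq2 also called 0 members. With the replicate number as a block, edgeR again called 0 members, and 0% of all genes in dividing progenitors, 0.00816% in neuroblasts, 0.169% in other inhibitory neurons and 0% over all 3 groups, with an unadjusted p under 0.05 for 2.27, 2.76, 4.56 and 2.05% of the genes. The sources used here do not state that the replicate pools came from separate litters or experiments, so p-values measure only the spread between these libraries, which may be technical.

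In dividing progenitors Sp9 was at 343 and 187 CPM in the controls and 338 and 259.6 CPM in the mutants. Dlx1 was at 436 and 509.7 CPM in the controls and 409 and 455 CPM in the mutants. The genotypes overlapped for both, as for every other member. The fitted log2 change (mutant over control, ± standard error) was -0.16 ± 0.21 for Dlx1, 0.074 ± 0.41 for Dlx2, 0.025 ± 0.39 for Dlx5, 0.12 ± 0.38 for Dlx6, -0.12 ± 1.22 for Dlx1as, -0.11 ± 0.39 for Dlx6os1 and 0.14 ± 0.38 for Sp9, each with an edgeR adjusted p of 0.99991. In this fit, which has no replicate term, each change was smaller than its standard error. Same-numbered libraries deviated together over genes at r = 0.814 in this group, so the error also holds the shift between replicates. Within replicates, Sp9 changed by -0.020 within replicate 1 (counting interval -0.11 to 0.066) and 0.48 within replicate 2 (0.25 to 0.71). The counting interval of replicate 2 lies above 0 and that of replicate 1 includes 0. Dlx1 changed by -0.091 within replicate 1 (-0.17 to -0.014) and -0.17 within replicate 2 (-0.32 to -0.0084), with both intervals below 0. Dlx2 was the only other member with 1 direction in both replicates, upward at 0.061 and 0.17, with intervals that included 0. These intervals cover counting error only.

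In neuroblasts Dlx6os1 had, of the 7 members, the fitted change that was largest relative to its error, -0.33 ± 0.28, with an edgeR adjusted p of 0.99998. Its levels, given above, were lower in the mutant of each replicate, with log2 ratios of -0.11 within replicate 1 (counting interval -0.15 to -0.067) and -0.52 within replicate 2 (-0.62 to -0.42). The genotypes did not overlap for Dlx6os1, while they overlapped for every other member in neuroblasts. Mutant replicate 2 stood furthest from the other libraries. With 2 against 2 libraries, no separation can give an exact two-sided permutation p under 0.333. No genotype effect is read from the separation of Dlx6os1. The share of all genes whose genotypes separate in this way was not computed. Dlx1as was at 174 and 45.8 CPM in the controls and 159.8 and 22.8 CPM in the mutants, a within-replicate change of -0.12 and -1.01. The genotypes overlapped, and both replicate 2 libraries were below both replicate 1 libraries. With the replicate number as a block in the edgeR fit, unadjusted p was 0.0180 for Dlx6os1 and 0.0438 for Dlx1as, and the adjusted p was 0.99953 for both, while 2.76% of all genes had an unadjusted p under 0.05. The other members changed by -0.083 ± 0.34 (Dlx1), 0.10 ± 0.33 (Dlx2), 0.020 ± 0.26 (Dlx5), 0.20 ± 0.41 (Dlx6) and 0.048 ± 0.24 (Sp9) in the unblocked fit. Chd8 itself was at 93.9 and 122 CPM in the controls and 106 and 172 CPM in the mutants in neuroblasts.

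In other inhibitory neurons Sp9 was at 171 and 263 CPM in the controls and 287 and 333 CPM in the mutants. Both mutants exceeded both controls, with log2 ratios of 0.75 within replicate 1 (counting interval 0.52 to 0.99) and 0.34 within replicate 2 (-0.12 to 0.81), and the fitted change was 0.51 ± 0.43 with an edgeR adjusted p of 0.99993. With the replicate block its unadjusted p was 0.0206 and its adjusted p 0.819, where 4.56% of all genes had an unadjusted p under 0.05. This group is made of 2 kinds of neuron whose numbers differ between libraries, from 21 to 142 striatal and 8 to 91 Lhx6- and Reln-led cells. Within striatal cells Sp9 was higher in the mutant of each replicate (166 and 338 CPM in the controls, 281 and 447 CPM in the mutants). Within the Lhx6- and Reln-led cells it was higher in the mutant of replicate 1 (178 and 298 CPM) and lower in that of replicate 2 (191 and 45.9 CPM, the latter on 3 counts in 8 cells). Dlx2, at 151 and 171 CPM in the controls and 204 and 182 CPM in the mutants, separated by genotype as Sp9 did. The genotypes overlapped for every other member, and the share of all genes that separate was not computed in this group either. No genotype effect is read from these separations, since the smallest exact two-sided permutation p of 2 against 2 libraries is 0.333. Dlx6 was at 38.4 and 66.5 CPM in the controls and 29.1 and 47.6 CPM in the mutants, lower in the mutant of each replicate on 11 to 61 counts. The fitted changes of the rest were -0.057 ± 0.61 (Dlx1), 0.25 ± 0.39 (Dlx2), 0.24 ± 0.45 (Dlx5), -0.46 ± 0.52 (Dlx6), 0.30 ± 1.06 (Dlx1as) and -0.017 ± 0.49 (Dlx6os1).

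**Figure D3:**
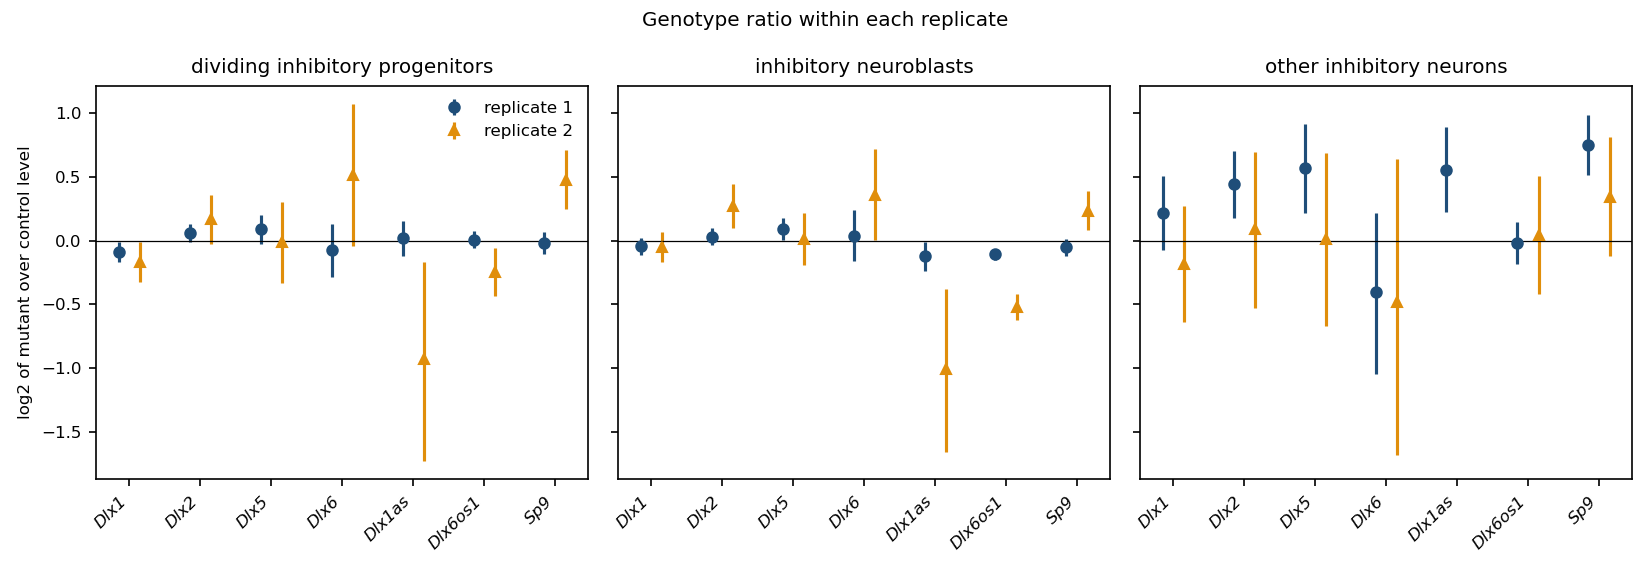
Log2 of the mutant over the control level of each gene within replicate 1 (circles) and replicate 2 (triangles) in the 3 cell groups, with exact 95% counting intervals; Dlx1as of replicate 2 is not drawn in other inhibitory neurons, where mutant replicate 2 had 2 counts. Dlx6os1 lies below 0 in neuroblasts in both replicates, and in dividing progenitors and neuroblasts Dlx1as lies at 0.016 and -0.12 in replicate 1 and at -0.92 and -1.01 in replicate 2.

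No member passed a test of whether the genotype effect differed between steps. An edgeR fit of step and genotype with library as a term called 0 of the 7 members and 1 of 13069 genes (0.00765%), and 198 genes (1.52%) had an unadjusted p under 0.05. The fitted difference, neuroblasts minus dividing progenitors, ran from -0.19 for Dlx6os1 to 0.088 for Dlx1. Of 3 upstream factors (Gsx1, Gsx2 and Nkx2-1), 3, 2 and 1 could be tested in dividing cells, neuroblasts and other neurons, with medians of -0.70, 0.52 and 0.80 on the log2 scale, and 0 were called. Of 19 known Dlx targets and GABA genes, 17, 17 and 18 could be tested, with medians of 0.038, 0.060 and -0.22 on the log2 scale beside medians over all genes of -0.0024, -0.012 and -0.034, and 0 were called. Of 4 genes that Dlx factors are known to repress (such as Olig2), 4, 4 and 3 could be tested, with medians of 0.041, 0.066 and 0.31, and 0 were called. Olig2 was at 5.64 and 5.44 CPM in the controls and 10.3 and 20.9 CPM in the mutants in neuroblasts, on 43, 7, 70 and 32 counts. Both mutants were above both controls, a separation whose share over all genes was not computed, so no genotype effect is read from it. The fitted change was 1.34 ± 0.51 with an edgeR adjusted p of 0.99998 and an unadjusted p of 0.0479, one of 2 unadjusted p under 0.05 among the 12257 genes. With the replicate block it was 1.09 with an unadjusted p of 0.00254 and an edgeR adjusted p of 0.99953, where 338 genes had an unadjusted p under 0.05. The other genes of the repressed list changed in neuroblasts by 0.27 ± 0.69 (Hes1), -0.20 ± 0.33 (Pax6) and -0.14 ± 0.84 (Pak3) without the block. No background level is given here for Olig2, and a link of its change to the Dlx genes was not tested.

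The share of all sorted cells with a member was lower in the mutant of each replicate for all 7 genes. Dlx6os1 was found in 23.1 and 9.52% of thinned cells in the controls and in 20.7 and 7.53% in the mutants, a difference of -2.21 percentage points in the mean. Dlx1 was found in 17.7 and 10.2% and in 15.4 and 8.02%, a difference of -2.25 points. The differences ran from -2.25 (Dlx1) to -0.218 points (Dlx6), and the exact permutation test gave p = 0.667 for each gene and an adjusted p of 0.667 over the 7, where the smallest p that 2 against 2 libraries allow is 0.333 (two-sided). The members share cells and are not independent. Cells of the 3 inhibitory groups were 29.2 and 13.2% of the controls and 25.6 and 10.5% of the mutants.

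The replicates differed, and not alike for all members. In neuroblasts the log2 ratio of replicate 2 to replicate 1 was -1.93 in the controls and -2.81 in the mutants for Dlx1as. It was 0.63 in the controls and 0.63 in the mutants for Dlx1, on the strand opposite Dlx1as. Dlx6 had 0.62 in the controls and 0.94 in the mutants, and Dlx2 had -0.52 in the controls and -0.28 in the mutants. Dlx1 and Dlx6 thus stood higher in replicate 2 in both genotypes, and Dlx1as and Dlx2 lower. Dlx6os1 had 0.0041 in the controls and -0.41 in the mutants. In dividing cells 6 of the 7 members were lower in replicate 2 in both genotypes, and Dlx1 was higher by 0.23 and 0.15. Dlx1as had -2.07 in the controls and -3.01 in the mutants there. Software version, Xist level and mitochondrial share all move with the replicate number, and their part was not tested.

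**Figure D4:**
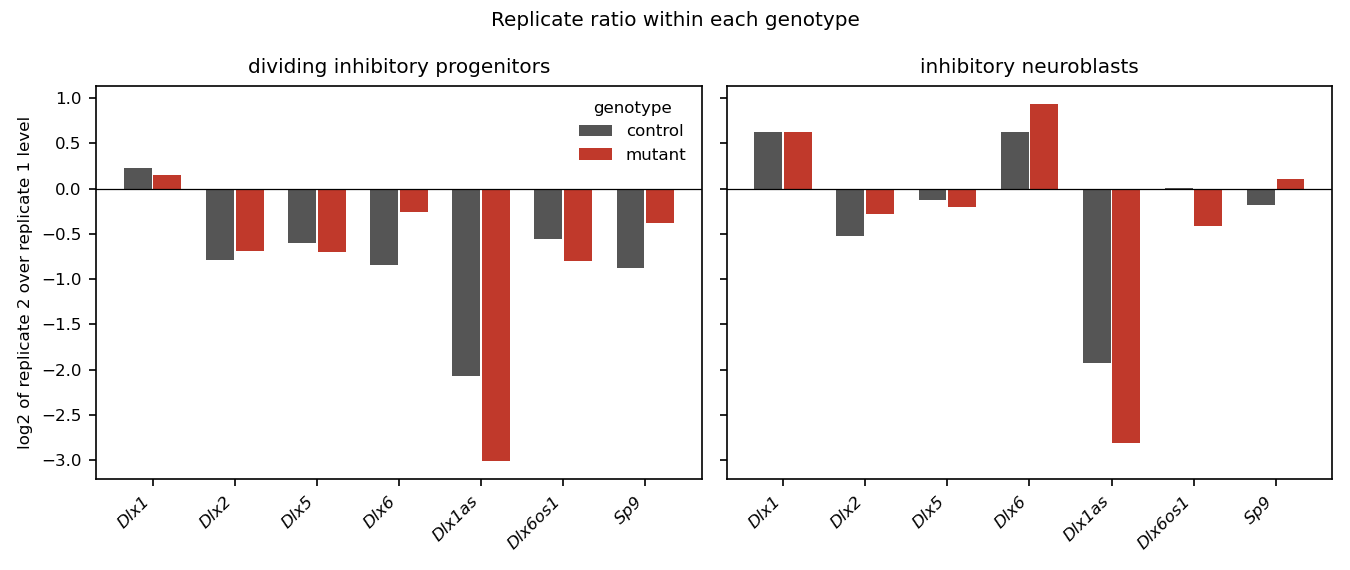
Log2 of the replicate 2 over the replicate 1 level of each gene within controls (grey) and mutants (red), in dividing progenitors and neuroblasts; bars start at 0. Dlx1as is lower in replicate 2 by 1.93 to 3.01 on this scale in every bar, whereas Dlx1 is higher in every bar.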

How the data were processed

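The authors aligned and counted the reads with Cell Ranger on mm10 and deposited raw UMI counts per gene and cell for each library. The file headers name versions 7.0.0 and 5.0.1, and the submitters' processing notes 3.0. The members and lists were chosen with earlier results of these data known. A cell was used if it had between 2000 and 40000 UMIs and 1000 genes or more, and if mitochondrial genes took no more than 10% of its counts. Doublets (0.202 to 2.79% marked by Scrublet) were left in. Cells were clustered with scanpy 1.11.5 on 2000 variable genes without the members, giving 30 clusters named from marker lists. Levels are counts summed over the cells of a cluster and library, per 1000000 UMIs.

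Summed counts were tested with edgeR 4.0.16 (TMM, filterByExpr, quasi-likelihood test on genotype, Benjamini-Hochberg over all genes), with DESeq2 1.42.0 and a replicate block among the alternatives. Shares were computed after drawing 2000 UMIs per cell. Log2 ratios within a library or replicate needed at least 4 counts on each side, with exact counting intervals. The named genes were the members, Dlx3, Dlx4, Chd8, the fixed pathway lists, the 5 genes most like each member, Xist and Mki67. Hba-a1, Bcl11b and marker genes in cluster names were added after their values were seen. Some genes of the fixed lists are not reported here and were left out of the list counts. Gene positions follow GENCODE vM21 and promoters RefSeq.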

Additional observations from a re-analysis of the deposited data

Results flagged for a closer look

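Dlx6 was the member whose genotype ratio pointed one way in one cell group and the other way in another. The log2 ratio of mutant to control was positive within both replicates in neuroblasts, with a mean of 0.197, and negative within both in other inhibitory neurons, with a mean of -0.443, a gap of 0.639. The counting intervals in other inhibitory neurons included 0 in both replicates. In neuroblasts the ratio of replicate 1 was 0.039, with an interval of -0.16 to 0.24 that also included 0. That of replicate 2 was 0.35, with an interval of 0.00061 to 0.71. The difference was tested in an edgeR fit across all genes, added after the data were seen. It gave -0.58 on the log2 scale and an edgeR adjusted p of 0.99999 over 11241 genes (unadjusted p, 0.105), of which 0 were called and 183 had an unadjusted p under 0.05.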

How the results depend on the processing

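No alternative called a member between genotypes in any cell group: DESeq2, total counts without TMM, no filter on low counts, the replicate block, a mitochondrial limit of 5%, removal of cells marked as doublets, clustering with the members, and leaving out each library all gave 0 members, and so did the test between dividing progenitors and neuroblasts. The labels do not say that a replicate number marks a shared litter, batch or day, so the replicate block was kept as an alternative, although replicates 1 and 2 differed in both genotypes in software version, Xist and mitochondrial share. Deviations of the same-numbered libraries correlated over genes at r = 0.814 in dividing progenitors, 0.833 in neuroblasts and 0.725 in other inhibitory neurons, and the block raised the calls over all genes from 0 to 1 in neuroblasts and to 15 in other inhibitory neurons. With a mitochondrial limit of 5%, only 19 other inhibitory neurons remained in mutant replicate 2.

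The sign of most fitted genotype changes rested on single libraries. Leaving out each library in turn, the log2 change ran from -0.36 to 0.53 (Dlx2), -0.42 to 0.36 (Dlx5), -0.21 to 0.62 (Dlx6), -2.35 to 1.27 (Dlx1as), -0.62 to 0.26 (Dlx6os1) and -0.21 to 0.66 (Sp9) in dividing progenitors, from -0.35 to 0.23 (Dlx1), -0.16 to 0.44 (Dlx2), -0.15 to 0.18 (Dlx5), -0.25 to 0.54 (Dlx6), -2.38 to 1.06 (Dlx1as) and -0.061 to 0.19 (Sp9) in neuroblasts, from -0.54 to 0.69 (Dlx1), -0.050 to 0.64 (Dlx5), -2.56 to 1.60 (Dlx1as) and -0.35 to 0.41 (Dlx6os1) in other inhibitory neurons, and from -0.25 to 0.19 (Dlx1), -0.16 to 0.54 (Dlx2), -0.10 to 0.32 (Dlx5), -0.015 to 0.41 (Dlx6), -2.36 to 1.25 (Dlx1as), -0.48 to 0.10 (Dlx6os1) and -0.028 to 0.46 (Sp9) over all 3 groups. An arm left with 1 library was assumed to vary like the other. In other inhibitory neurons Dlx1 also changed sign to 0.018 with the replicate block, to 0.34 with the mitochondrial limit of 5% and to 0.0019 with the members among the clustering genes, and Dlx6os1 changed sign to 0.0052 without TMM, 0.14 with the mitochondrial limit, 0.015 without doublets and 0.0084 with the members. The cause was not tested.

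Clustering with the members, which left 589 cells in place of 900 as dividing progenitors, moved the levels there to 697 CPM (Dlx1), 648 CPM (Dlx2), 256 CPM (Dlx5), 81.6 CPM (Dlx6), 749 CPM (Dlx6os1) and 466 CPM (Sp9). Averaging CPM over cells gave 201 CPM (Dlx5) in dividing progenitors and 405 CPM (Dlx6os1) in striatal cells. Without thinning, the mean share over libraries was 19.0% (Dlx1), 20.3% (Dlx2), 3.20% (Dlx5), 8.10% (Dlx1as), 4.06% (Dlx6os1) and 6.62% (Sp9) in Dll1- and Egfr-led cells, 74.6% (Dlx1), 75.2% (Dlx2), 59.7% (Dlx5), 42.1% (Dlx6), 45.8% (Dlx1as), 63.6% (Dlx6os1) and 64.6% (Sp9) in dividing progenitors, 92.0% (Dlx1), 84.0% (Dlx2), 76.4% (Dlx5), 34.6% (Dlx6), 34.1% (Dlx1as), 96.4% (Dlx6os1) and 87.2% (Sp9) in neuroblasts and 56.4% (Dlx1), 50.2% (Dlx2), 48.2% (Dlx5), 24.2% (Dlx6), 19.9% (Dlx1as), 73.7% (Dlx6os1) and 62.4% (Sp9) in other inhibitory neurons. The thinned shares are 1 random draw, and a draw made earlier with a shorter list of genes gave somewhat different shares. The share expected over all draws differed from the drawn one by a median of 0.795 and at most 15.4 percentage points over 350 shares of a cluster in a library, and it kept every share and difference within the spread between libraries. The change from dividing progenitors to neuroblasts kept its direction for all 7 members without any 1 library, but not with other sets of dividing cells. In log2, it became -0.030 (Dlx1), -0.45 (Dlx2), 0.25 (Dlx5), -0.094 (Dlx6), -0.23 (Dlx1as), 0.71 (Dlx6os1) and 0.17 (Sp9) with the members among the clustering genes, and 0.081 (Dlx1), -0.47 (Dlx2), 0.17 (Dlx5), -0.61 (Dlx6), -0.96 (Dlx1as) and 0.69 (Dlx6os1) against the mitosis-led cells alone. Both were chosen after seeing the data, and clustering with the members sorts cells partly by the genes measured.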
